A study of Mus musculus with 11 samples.

Results

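The 44 genes described here code for the machinery of motile cilia, the beating hairs of the ependymal cells that line the brain ventricles. They were taken from a list of symbols covering axonemal dyneins, radial spokes, tektins, other axoneme components and the regulator Foxj1, and each symbol was matched to its Ensembl identifier in GENCODE M21. All 44 were found among the 52550 genes of the count table. Of the 44, 40 had a median count of at least 10 over the libraries, as did 17506 genes in all, and Dnah3, Dnah12, Spag17 and Tmem212 did not.

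A motile cilium beats because dynein arms, built from heavy, intermediate and light chains, slide neighbouring microtubule doublets against each other, while radial spokes and the central pair apparatus regulate that sliding and nexin links restrain it. In ependymal cells, Foxj1 and RFX transcription factors switch on many of these genes together, and the beating tufts help to move cerebrospinal fluid along the ventricle wall. The ventricle borders the striatum, so a tissue punch near that border can hold ependymal cells next to neurons.

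Messenger RNA was sequenced in 11 libraries from punches of the nucleus accumbens shell, which lies ventrally in the striatum, of 8-week-old mice on a CBA/C57BL6J/129svEmx mixed background. The series asked how lower signalling through the retinoic acid receptor Rarb changes RNA levels in mice with a Huntington disease mutation. Each library carries an animal code (m115 to m83) and a library code in the labels, which name no genotype, allele or treatment. No library could be placed in a group, so values are given per library without any test between groups, and whether any pattern follows genotype was not tested.

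Library totals ran from 24840981 counts (m61) to 48825783 counts (m49), with a median of 36252983. Levels are given in CPM, counts per 1000000 on TMM-scaled library sizes, and 3 counts, taken as the floor, correspond to 0.0619 to 0.133 CPM. The intervals given below cover counting error only, since PCR copies of 1 molecule could not be told from separate molecules. The library m61 had the lowest total and the largest share of mitochondrial counts (7.21%, against 2.90 to 5.15% in the other libraries). Of the neuronal markers of the striatum, Ppp1r1b lay between 438 and 646 CPM and Penk between 301 and 410 CPM in the 6 libraries with codes NSZR1 to NSZR7 (m115, m49, m47, m74, m73 and m101). In the 5 with codes NSZR9 to NSZR14 (m57, m44, m61, m89 and m83), Ppp1r1b lay between 993 and 1352 CPM and Penk between 807 and 1321 CPM. Ppp1r1b and Penk thus differed between the lower and higher codes without overlap, as did Drd1, Drd2 and Adora2a. Pde10a and Rgs9 did overlap, with Pde10a at 195 CPM in m115 and 160 CPM in m61. Rgs9 was at 124 CPM in m101 and 121 CPM in m61. The share of all genes that differ in this way was not counted. Ppp1r1b and Penk mark the striatum at large and do not tell the accumbens shell from its neighbours.

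Promoter sequences of 36 of the 44 genes were read from RefSeq (GRCm38.p6, the build named mm10 in the processing notes), as windows from 250 bases before to 50 bases after the start (not Foxj1, Dnah3, Rsph1, Rsph4a, Cfap53, Cfap54, Cfap65 and Ccdc146). The letters TGTTTAC, a core of forkhead sites, and GTTGCC, 1 arm of the inverted repeat that RFX factors bind, were searched on both strands, and the pair of motifs cannot overlap each other. GTTGCC was found in 17 of the 36 promoters (47.2%), against 14.1% of the promoters of 27025 genes. TGTTTAC was found in 3 of the 36 (8.33%), against 4.05% of all. The sequences below are the 250 bases before the start, 5′ to 3′, with these letters in capitals, and are shown for the marker Ccdc153 (chr9:44240427-44240676, plus strand), for Mlf1 with both motifs (chr3:67373847-67374096, plus strand), for Spag16 with GTTGCC on both strands (chr1:69826720-69826969, plus strand), for Ak7 with TGTTTAC alone (chr12:105705732-105705981, plus strand), for Tmem212 with neither (chr3:27896369-27896618, minus strand) and for Drc1 with GTTGCC close to the start (chr5:30281143-30281392, plus strand).
Ccdc153: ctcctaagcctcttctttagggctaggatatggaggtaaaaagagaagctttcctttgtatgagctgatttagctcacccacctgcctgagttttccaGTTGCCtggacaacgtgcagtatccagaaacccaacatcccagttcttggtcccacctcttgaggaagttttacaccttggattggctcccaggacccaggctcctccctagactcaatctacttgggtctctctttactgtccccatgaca
Mlf1: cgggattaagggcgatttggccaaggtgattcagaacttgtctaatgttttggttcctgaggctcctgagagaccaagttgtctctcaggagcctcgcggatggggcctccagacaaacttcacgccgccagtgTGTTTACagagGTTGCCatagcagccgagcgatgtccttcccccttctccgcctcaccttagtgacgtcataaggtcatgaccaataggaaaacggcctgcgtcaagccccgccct
Spag16: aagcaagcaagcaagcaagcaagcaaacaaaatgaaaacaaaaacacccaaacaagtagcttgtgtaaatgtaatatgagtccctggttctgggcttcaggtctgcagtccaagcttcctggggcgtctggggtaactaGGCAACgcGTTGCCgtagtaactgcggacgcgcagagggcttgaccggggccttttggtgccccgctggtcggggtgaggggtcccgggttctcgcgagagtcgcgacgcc
Ak7: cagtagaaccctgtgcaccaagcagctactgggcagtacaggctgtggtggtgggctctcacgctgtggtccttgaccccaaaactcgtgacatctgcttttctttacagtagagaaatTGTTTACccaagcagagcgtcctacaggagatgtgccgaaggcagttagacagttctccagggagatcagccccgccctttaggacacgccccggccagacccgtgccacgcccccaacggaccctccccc
Tmem212: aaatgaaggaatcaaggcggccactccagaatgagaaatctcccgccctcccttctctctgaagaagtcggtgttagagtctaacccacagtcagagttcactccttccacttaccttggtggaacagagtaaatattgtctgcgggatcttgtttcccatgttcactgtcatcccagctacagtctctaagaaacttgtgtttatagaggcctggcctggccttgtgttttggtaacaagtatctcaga
Drc1: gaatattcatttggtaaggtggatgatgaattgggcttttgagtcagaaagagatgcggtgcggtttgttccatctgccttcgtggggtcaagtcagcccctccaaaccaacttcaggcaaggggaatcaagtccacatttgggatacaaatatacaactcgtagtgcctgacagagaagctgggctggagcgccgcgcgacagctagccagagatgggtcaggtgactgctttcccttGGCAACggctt

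A motif match describes these letters only and does not show a bound site. The GTTGCC letters begin at position −152 from the start in Ccdc153 and at −105 in Mlf1, which has TGTTTAC at −116. In Spag16 the matches begin at −111 and −103 on opposite strands, with 2 bases between them. Drc1, with a match at −11, and Ccdc153 both hold GTTGCC, although they were the least and the most variable of the 40 genes. Among genes whose highest library was at least 2 times the median library, 8 of 22 promoters held GTTGCC, and among the rest 9 of 14 did. All 3 promoters with TGTTTAC (Mlf1, Ak7 and Cfap43) belong to genes past that ratio of 2, as do 22 of all 36 promoters.

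The motile cilia genes were highest in the libraries m115 and m47. The mean deviation of the 40 genes from their own median library, on the log2(CPM + 0.5) scale, was 0.95 in m115 and 0.77 in m47. It was 0.15 in m49, 0.14 in m83, 0.03 in m44, −0.11 in m73, −0.15 in m57, −0.21 in m74 and in m89, −0.24 in m101 and −0.44 in m61. The 2 highest libraries thus stood apart from the next, while m49 and m83 differed by less than a change of summary moved them, since the median deviation over the genes was 0.07 in m49 and 0.24 in m83.

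**Figure D1:**
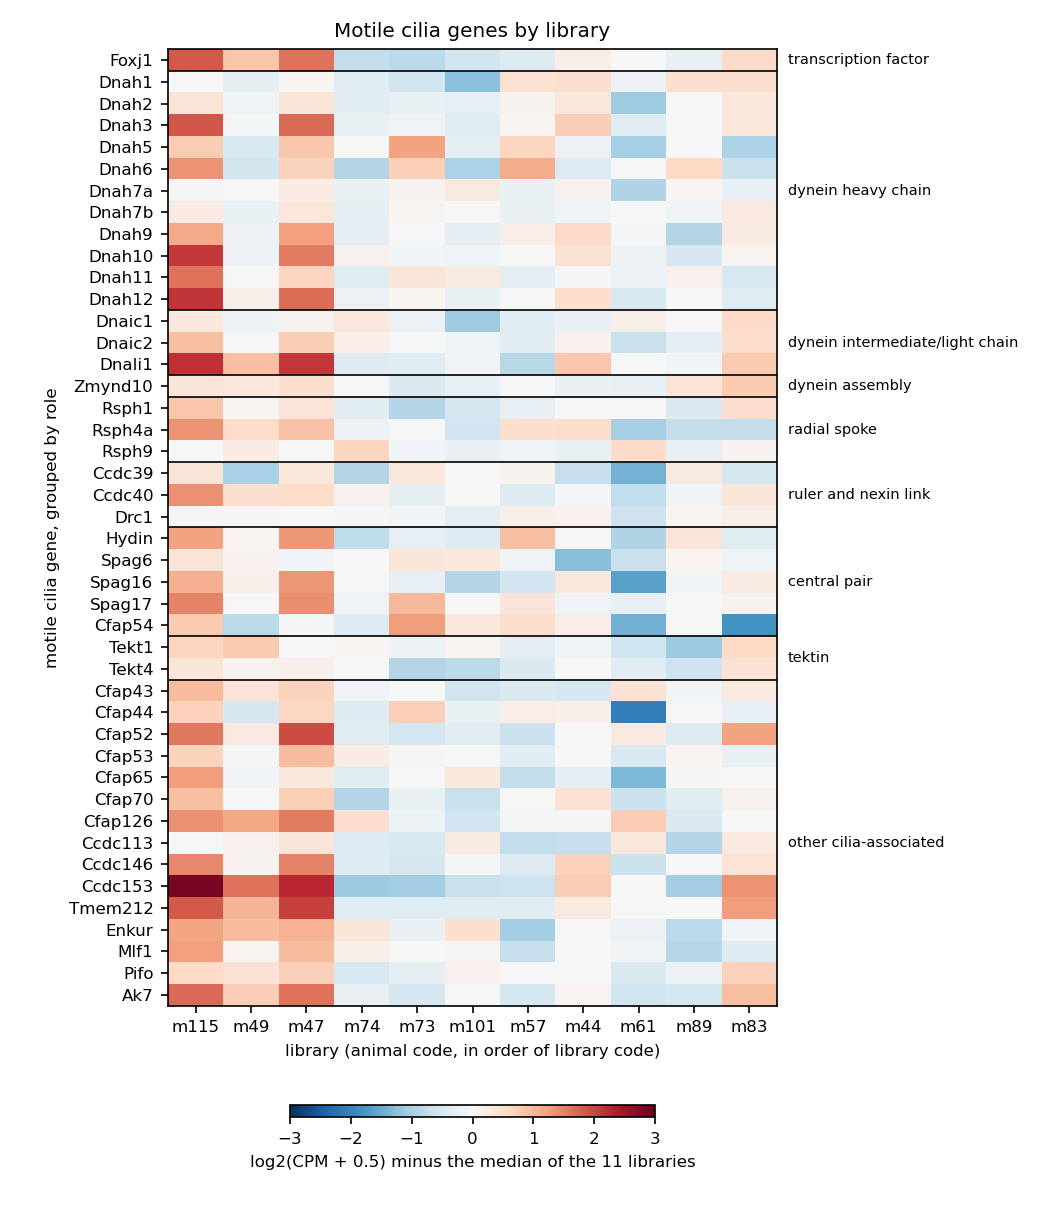
Deviation of each of the 44 motile cilia genes (rows, grouped by role) from its median library in each of the 11 libraries (columns), in log2(CPM + 0.5), with red above and blue below the median. The m115 and m47 columns are red for most rows, while rows such as Drc1 and Dnah7a change little across the libraries.

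Counted gene by gene, m115 was the highest library for 19 of the 40 genes (47.5%), against 6.31% of all genes, and for 22 of the 44. The library m47 was the highest for 10 of the 40 (8.46% of all genes), and without m115 it became the highest for 24 of the 40, against 10.4% of all genes. The library m83 was the highest for 4 of the 40, against 8.08% of all genes, a share near that background. Among all 44 genes, m115 was one of the 3 highest libraries for 38 (26.4% of all genes) and m47 for 36 (28.8% of all genes). The libraries m115, m47 and m49, singled out from earlier results of these data as holding most ependymal signal, were the 3 highest for 7 of the 40 genes, against 1.38% of all genes. These 7 were Foxj1, Dnali1, Rsph4a, Ccdc40, Cfap126, Ccdc153 and Enkur. At the low end, m61 was the lowest library, or tied for it, for 18 of the 44 genes (25.8% of all genes).

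Summed over the 44 genes, cilia transcripts took 318 of every 1000000 counts in m115 (exact 95% interval 312 to 324) and 263 in m47 (257 to 268). The next was m73 with 191 (187 to 196), ahead of m57 with 174 (169.6 to 178), m83 with 171 (168 to 175), m89 with 169 (165 to 174), m44 with 168 (164 to 173) and m49 with 162 (159 to 166). The lowest were m101 with 151 (147 to 156), m74 with 147 (143 to 151) and m61 with 105 (101.4 to 109.5). The intervals of m57, m83, m89 and m44 overlap, so their order in this sum is not resolved by counting. Nor is that of m49 against m44 and m89, or of m101 against m74, whose intervals overlap too. Long and abundant members weigh most in such a sum, as Cfap54 did with 42.5 CPM in m73, and the order of m73 and m49 here is the reverse of their order in the mean deviation. In bulk tissue, fewer ciliated cells and less of these RNAs per cell cannot be told apart.

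Between libraries, 25 of the 40 genes (62.5%) had a highest library at least 2 times their median library, against 15.6% of all genes. At least 1.5 times was reached by 32 of the 40, against 40.1% of all genes. The median ratio of highest to median library was 2.45 over the 40 and 1.41 over all 17506 genes. The median biological coefficient of variation, the spread that remains after counting noise is taken out, was 0.541 for the 40 genes and 0.220 for all genes. It stayed between 0.505 and 0.565 for the cilia genes when each library was left out in turn.

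Foxj1, the forkhead factor that drives motile ciliogenesis (chromosome 11, 116330704 to 116335399, minus strand, mm10), was at 16.7 CPM in m115 (95% interval 15.5 to 18.0), 14.4 CPM in m47 (13.1 to 15.8) and 8.08 CPM in m49 (7.30 to 8.92). It was at 6.69 CPM in m83, 5.06 in m44, 4.34 in m61, 3.57 in m89, 3.15 in m57, 2.76 in m101, 2.42 in m74 and 2.27 in m73. The intervals of m115 and m47 overlap, and both lie clear of that of m49. Per kilobase of exon its median level was 1.66 CPM, and m115 exceeded that median library by 4.71 CPM per kilobase, the largest such excess among the 44 genes.

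Ccdc153, a coiled-coil gene used as a marker of ependymal cells (chromosome 9, 44240676 to 44247306, plus strand), had 304 counts in m115, 155 in m47, 143 in m49, 107 in m83 and 45 in m44. It had 14 counts in m61, 8 in m57, 6 in m101, 2 in m73, 2 in m89 and 1 in m74. In CPM it ran from 0.0245 in m74 through a median of 0.621 to 7.58 in m115 (6.75 to 8.48). Its highest library was thus 12.2 times the median library, and m83 and m44 lay above the remaining 6 libraries, as they did for Foxj1. Both given markers were detected in all 11 libraries, with m115, m47 and m49 as the 3 highest for each.

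Tmem212, a transmembrane gene whose RNA is also a marker of ependymal cells (chromosome 3, 27866066 to 27896368, minus strand), had 71 counts in m115, 68 in m47, 47 in m83, 39 in m49 and 9 in m44. It had 5 counts in m89, 3 in m61 and 0 in m74, m73, m101 and m57, where the exact 95% upper limits for 0 counts are 0.0903, 0.0871, 0.127 and 0.107 CPM. Its level was 2.13 CPM in m47 (1.65 to 2.69) and 1.77 CPM in m115 (1.38 to 2.23), with overlapping intervals. It was 1.03 CPM in m83 (0.758 to 1.37) and 0.804 CPM in m49 (0.572 to 1.10), whose intervals overlap as well. By value m83 thus took the place that m49 had for Foxj1 and Ccdc153 among the 3 highest libraries, within counting error.

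**Figure D2:**
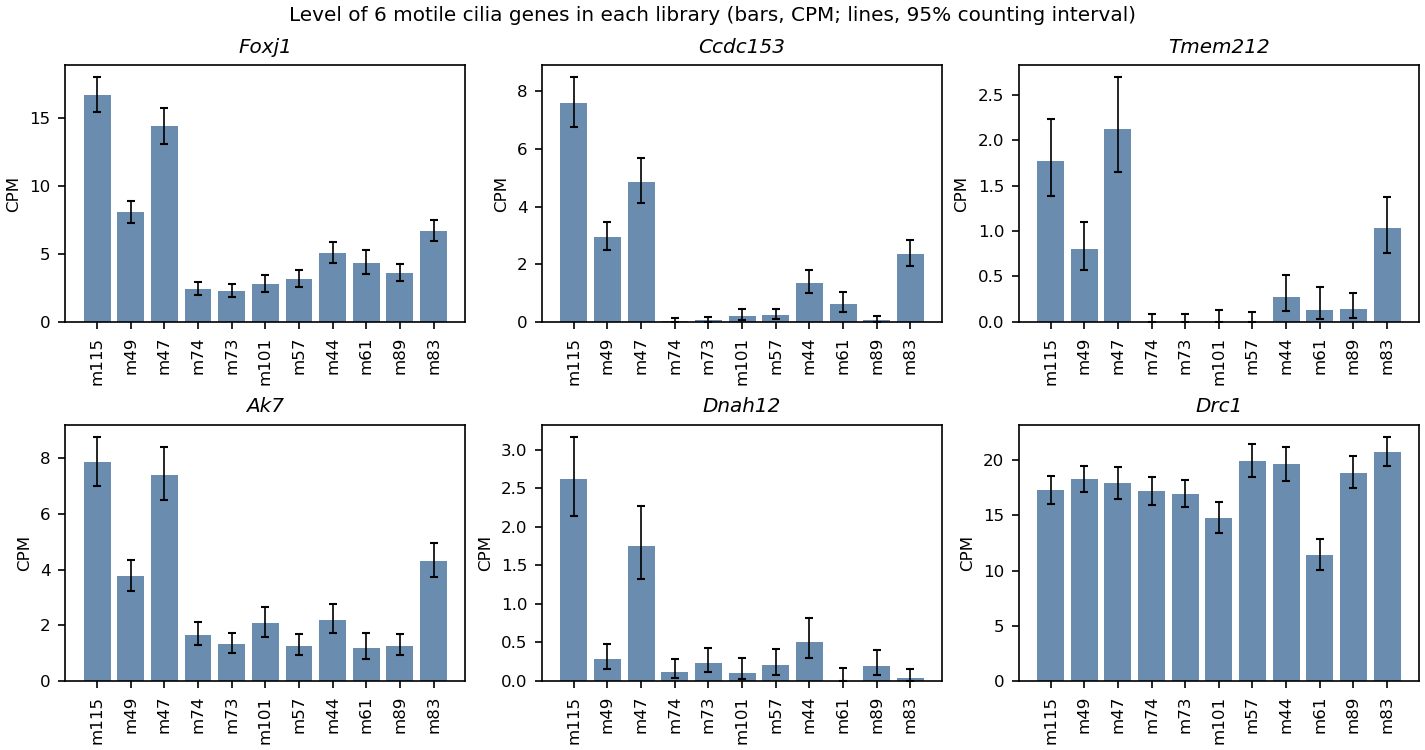
Level (CPM, bars) of Foxj1, Ccdc153, Tmem212, Ak7, Dnah12 and Drc1 in each library, with 95% intervals of counting error as lines. The first 5 genes peak in m115 and m47, Dnah12 lacks the raised bars that Ccdc153, Tmem212 and Ak7 have in m49 and m83, and Drc1 stays between 11.4 and 20.7 CPM.

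Among the 11 dynein heavy chains, the motor subunits of the arms, variation split the genes. Dnah12, an inner arm chain, was at 2.62 CPM in m115 (2.14 to 3.17) and 1.75 CPM in m47 (1.32 to 2.27), with a median of 0.202 CPM and 0 counts in m61. Dnah3, also of the inner arm, was at 1.82 CPM in m115 and 1.56 CPM in m47, with a median of 0.138 CPM and 0 counts in m101 and m61, and 10.53% of its exon bases overlap Lyrm1 on the opposite strand. Neither had a median count of 10, so their ratios of 12.9 (Dnah12) and 13.2 (Dnah3) rest on few counts in the median library. Dnah10 ran from 0.277 CPM in m89 through a median of 0.607 to 4.29 CPM in m115, and Dnah11, a chain of the outer arm, from 0.483 CPM in m83 through 0.866 to 3.71 CPM in m115.

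The outer arm chains Dnah5 and Dnah9 differed in which library was highest. Dnah9 ran from 1.33 CPM in m89 through a median of 2.83 to 7.28 CPM in m47, with 6.86 CPM in m115. Dnah5 ran from 1.68 CPM in m61 through 3.87 to 9.59 CPM in m73, above its 7.09 CPM in m47 and 6.93 CPM in m115. Dnah6 was at 15.3 CPM in m115 and 13 CPM in m57, and its lowest library was m101 with 2.72 CPM. Dnah5 and Dnah6 thus had high values in m73 or m57, libraries in which Ccdc153 had at most 8 counts.

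The remaining heavy chains varied less. Dnah1, the heavy chain with the highest median level per kilobase (0.885 CPM per kilobase), was at 16.6 CPM in m89, 16.2 in m44, 16.2 in m83, 16.1 in m57, 12.0 in m47 and 11.5 in m115. It was at 10.1 CPM in m61, 9.44 in m49, 9.21 in m74, 7.56 in m73 and 4.58 in m101. For Dnah1 m115 was the median library itself, so the gene did not share the pattern of Foxj1. Dnah2 ran from 3.15 CPM in m61 through 7.19 to 9.52 CPM in m115. The near-identical copies Dnah7a (0.975 to 2.83 CPM) and Dnah7b (0.588 to 1.19 CPM) can exchange reads, and their highest libraries were 1.26 and 1.41 times the median library.

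Of the smaller dynein subunits, Dnali1, a light intermediate chain of the inner arm, was at 3.84 CPM in m115, 3.59 in m47, 1.26 in m49, 1.15 in m44 and 1.12 in m83. It lay between 0.0289 CPM in m57, a single count, and 0.443 CPM in m61 elsewhere, and the highest library was 8.66 times the median library. The outer arm intermediate chain Dnaic2 ran from 1.29 CPM in m61 through 2.33 to 4.81 CPM in m115.

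Dnaic1, the other outer arm intermediate chain, was at 6.08 CPM in m83, 5.17 in m74, 5.09 in m115, 4.52 in m61, 4.28 in m47 and 3.95 in m89. It was at 3.48 CPM in m49, 3.43 in m73, 3.38 in m44, 2.97 in m57 and 1.62 in m101. Its partner subunit Dnaic2 was highest in m115 and m47, whereas Dnaic1 was by value highest in m83 and m74. For Dnaic1 the intervals of m83 (5.38 to 6.84), m74 (4.49 to 5.91) and m115 (4.41 to 5.83) overlap. Their order is therefore not resolved by counting. Zmynd10, needed to assemble dynein arms in the cytoplasm, was at 9.502 CPM in m83, 7.72 in m47, 7.16 in m89, 6.91 in m115, 6.68 in m49 and 5.29 in m57. It was at 5.24 CPM in m74, 4.52 in m44, 4.48 in m61, 4.38 in m101 and 3.78 in m73, and 10.1% of its exon bases overlap a gene on the opposite strand.

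The radial spoke head genes did not move as a unit. Rsph4a ran from 2.13 CPM in m61 through 4.75 to 12.96 CPM in m115, and Rsph1 from 2.39 CPM in m73 through 4.82 to 9.0 CPM in m115. Rsph9, the most abundant of the 44 genes per kilobase (median 8.35 CPM per kilobase), was at 21.1 CPM in m74, 20.2 in m61, 15.8 in m49, 14.5 in m83, 13.6 in m115 and 13.4 in m47. It was at 12.7 CPM in m73, 12.2 in m57, 11.6 in m101, 11.3 in m44 and 11.2 in m89. The libraries with the highest Rsph9, m74 and m61, were below the median library for Rsph4a (4.26 and 2.13 CPM).

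Ccdc39 and Ccdc40, which in Chlamydomonas form the ruler that spaces spokes and inner arms along the doublet, also differed. Ccdc40 ran from 1.11 CPM in m61 through 2.171 to 6.43 CPM in m115, a ratio of highest to median library of 2.96. Ccdc39 ran from 8.11 CPM in m61 through 22.4 to 29.3 CPM in m115, a ratio of 1.31. It was also at 28.5 CPM in m73, 28.3 CPM in m47 and 27.2 CPM in m89. For Ccdc39, 16.9% of exon bases overlap Ttc14 on the opposite strand, and what part reads of Ttc14 have in its count was not tested.

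Drc1, a subunit of the nexin link, was the least variable of the 40 genes. It was at 20.7 CPM in m83, 19.9 in m57, 19.6 in m44, 18.9 in m89, 18.2 in m49 and 17.9 in m47. It was at 17.3 CPM in m115, 17.2 in m74, 16.9 in m73, 14.8 in m101 and 11.4 in m61. Its spread was 0.151, below the 0.220 median of all genes, and its median level of 6.66 CPM per kilobase was exceeded among the 44 by that of Rsph9 alone.

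Of the central pair genes, Hydin, a very large protein of that apparatus, ran from 0.488 CPM in m61 through 1.36 to 4.06 CPM in m47, with 3.76 CPM in m115. Spag16 ran from 0 counts in m61 through 1.05 CPM to 3.38 CPM in m47. Both were highest in m47, followed by m115, and elsewhere reached at most 2.97 CPM (Hydin in m57) and 1.45 CPM (Spag16 in m44). Spag17 had 52 counts in m115, 38 in m47 and 32 in m73, and between 1 and 12 counts in the other libraries. Spag6 did not reach 2 times its median library and ran from 0.0904 CPM in m44 (3 counts) through 0.930 to 1.37 CPM in m115.

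Cfap54, a further central pair gene, was at 42.5 CPM in m73, 30.9 in m115, 25.6 in m57, 21.9 in m101, 20.3 in m44 and 17.6 in m89. It was at 17.2 CPM in m47, 13.2 in m74, 9.86 in m49, 6.12 in m61 and 4.72 in m83. The library m47, high for Hydin, Spag16 and Spag17, was below the median library for Cfap54.

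Of the tektins, filament proteins of the doublet wall, Tekt1 was at 3.36 CPM in m49, 3.04 in m115, 2.92 in m83, 1.86 in m101, 1.84 in m74 and 1.75 in m47. It was at 1.63 CPM in m44, 1.51 in m73, 1.33 in m57, 0.975 in m61 and 0.553 in m89, and it was the only member whose highest library was m49. Tekt4 ran from 0.142 CPM in m73 through 0.686 to 1.10 CPM in m83, with 1.02 CPM in m115.

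Of the 15 remaining cilia-associated genes, 14 had a median count of at least 10, and 12 of these had a highest library at least 2 times the median library, against 15.6% of all genes. They were all 8 of those with a median under 1 CPM, against 58.4% of all such genes, and 4 of the 6 at 1 CPM or more, against 7.13%. Ak7, an adenylate kinase of cilia, was at 7.85 CPM in m115 (7.01 to 8.77), 7.41 in m47 (6.49 to 8.41), 4.30 in m83 (3.72 to 4.95) and 3.77 in m49 (3.25 to 4.36), and between 1.20 and 2.20 CPM elsewhere. Cfap52 ran from 0.0866 CPM in m57 through 0.422 to 3.06 CPM in m47. Cfap126 ran from 0.103 CPM in m101 through 0.395 to 2.13 CPM in m47, and Ccdc146 from 0 counts in m61 through 0.277 to 1.69 CPM in m47. All 3 of these genes were by value highest in m47, with intervals that overlap those of m115. Ccdc146 had a median count of 10, so its ratio of 6.10 rests on few counts.

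Enkur ran from 0.693 CPM in m57 through 1.93 to 4.99 CPM in m115, and Mlf1 from 0.277 CPM in m89 through 0.904 to 2.82 CPM in m115. Both were highest in m115, as was Cfap43, a WD-repeat protein of the axoneme, which ran from 1.24 CPM in m101 through 2.15 to 4.59 CPM in m115. Its relative Cfap44 was instead at 8.197 CPM in m73, 8.05 CPM in m115 and 7.63 CPM in m47, and lowest in m61 with 0.754 CPM. Cfap65 ran from 1.73 CPM in m61 through 5.18 to 13.04 CPM in m115. Cfap70 ran from 0.269 CPM in m74 through 0.907 to 2.12 CPM in m115. Like Ccdc146, Cfap53 and Pifo were by value highest in m47, where Cfap53 was at 0.906 CPM (median 0.241) and Pifo at 1.59 CPM (median 0.784). Cfap53 was at 0.673 CPM in m115, and Pifo at 1.58 CPM in m83 and 1.45 CPM in m115, with intervals that overlap those of m47. Every one of these genes except Cfap44 reached at least 2 times its median library.

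Ccdc113, a coiled-coil protein of cilia and the most abundant of these 15 per kilobase (median 3.46 CPM per kilobase), was at 5.91 CPM in m47, 5.81 in m61, 5.62 in m83, 5.48 in m101, 4.95 in m49 and 4.46 in m115. It was at 3.26 CPM in m74, 3.09 in m73, 2.59 in m44, 2.45 in m57 and 2.21 in m89. Here m115 was the median library, and m61, low for most of the genes, was among the high ones.

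Low genes of the list varied most by ratio, as low genes do in general. Of the 14 genes with a median count of at least 10 and a median under 1 CPM, 11 had a highest library at least 2 times the median library, against 58.4% of all such genes, and 6 had one at least 5 times it, against 3.03%. Of the 26 genes with a median of 1 CPM or more, 14 passed a ratio of 2, against 7.13% of all such genes, and 0 passed 5, against 0.274%. Foxj1 and Rsph4a, with medians of 1.66 and 1.30 CPM per kilobase, combined a level in the upper part of the list with ratios of 3.84 and 2.73. As a difference from the median library per kilobase, m115 exceeded it by 3.42 CPM for Ccdc153, 3.04 for Rsph1, 2.28 for Tmem212 and 2.25 for Rsph4a, and by a median of 0.196 for the 11 heavy chains. The added level in m115 was therefore of similar size for Ccdc153 and Rsph1, although their ratios were 12.2 and 1.87.

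**Figure D3:**
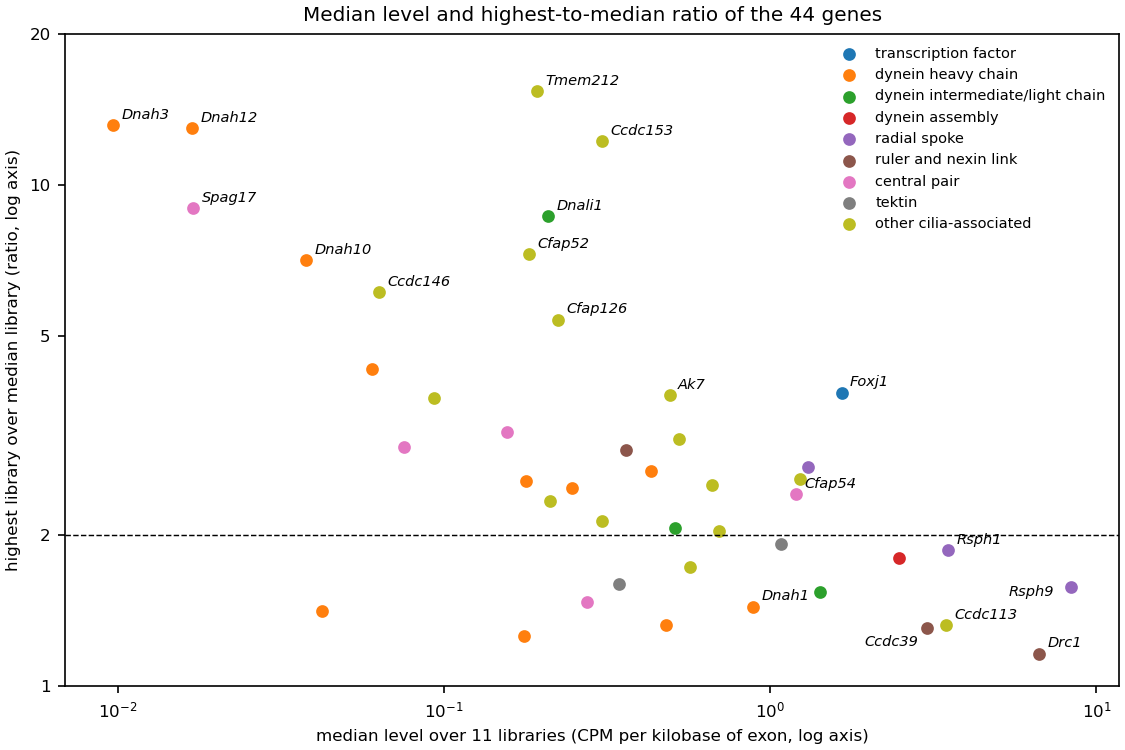
Median level of each of the 44 genes (CPM per kilobase of exon, log axis) against the ratio of its highest to its median library (log axis), coloured by role, with a dashed line at a ratio of 2. Genes past a ratio of 5 all lie at or below the 0.305 CPM per kilobase of Ccdc153, and Rsph9 and Drc1, furthest to the right at 8.35 and 6.66 CPM per kilobase, have ratios of 1.57 and 1.16.

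Deviations in m49 differed between the heavy chains, which are among the longest genes of the list, and the others. Exon length and gene class cannot be told apart in that split. In m49 the mean deviation was −0.22 for the 9 heavy chains with a median count of at least 10 and 0.26 for the other 31 genes. In m115 it was 0.84 for the heavy chains and 0.98 for the others, and in m47 0.65 and 0.81. Counted over all 44 genes, m49 was above the median library for 1 of the 11 heavy chains and for 24 of the other 33, 25 in all, against 47.2% of all genes. Over the 40 genes, Spearman's rho between exon length and deviation was −0.68 in m49, 0.06 in m115 and −0.04 in m47.

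The other libraries had their own relation of length and deviation. Over the 40 genes rho was 0.52 in m57, 0.50 in m73, 0.48 in m89 and 0.14 in m44. It was −0.07 in m101, −0.23 in m74, −0.43 in m61 and −0.43 in m83. Over 17477 genes the same coefficient was 0.38 in m115, 0.38 in m57, 0.34 in m47, 0.25 in m73, 0.24 in m89, −0.10 in m49, −0.16 in m44, −0.25 in m101, −0.32 in m74, −0.33 in m61 and −0.36 in m83. Long genes in general were thus relatively high in the first 5 of these libraries and low in m101, m74, m61 and m83. The points of a library share its depth and its preparation, so these coefficients are descriptions, and what part the length pattern has in the difference between m47 and m49 was not tested.

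**Figure D4:**
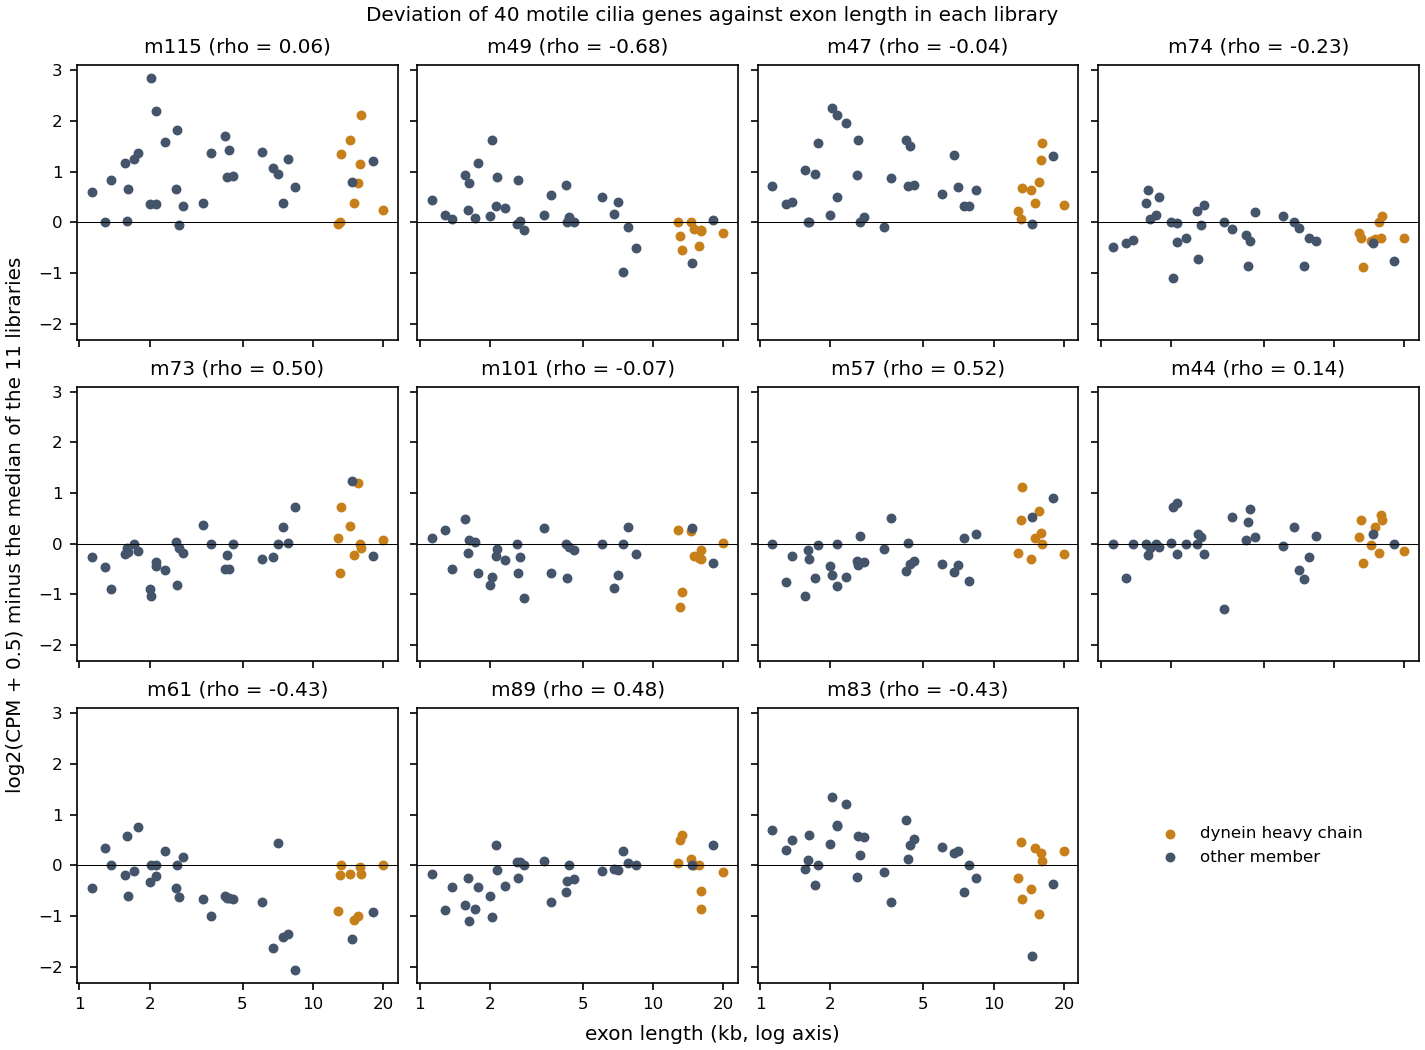
Deviation of the 40 genes from their median library (log2(CPM + 0.5), y axis) against exon length (kb, log axis) in each of the 11 libraries, with heavy chains in orange and Spearman's rho above each panel. In m49 most short genes lie above 0 and the heavy chains at or below it (rho = −0.68), while in m115 and m47 both kinds lie mostly above 0.

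Pairs of genes chosen after their values were seen were also compared in counts. Dnah12 and Ccdc153 had 105 and 304 counts in m115 and 56 and 155 in m47, a ratio of 0.345 and 0.361. In m49 they had 14 and 143 counts, a ratio of 0.0979, and in m83 2 and 107. The library m44 had 17 and 45 counts, a ratio of 0.378. In m101 and m57, with 3 and 6 counts and 7 and 8 counts, the ratio was 0.5 and 0.875. Dnah10 and Ccdc153 had a ratio of 0.566 in m115, 0.568 in m47, 0.756 in m44, 0.290 in m83 and 0.168 in m49. With 14 counts of Ccdc153 or fewer, their ratio was 0.786 in m61, 2.5 in m101 and 2.625 in m57. Dnah3 and Tmem212 had a ratio of 1.03 in m115, 0.735 in m47, 2.11 in m44, 0.298 in m83 and 0.154 in m49. In these 3 pairs the heavy chain stood lower against its partner in m49 and m83 than in m115, m47 and m44. Since the pairs were picked by their values, this describes them alone and not heavy chains in general. Of all 11 heavy chains, 6 were above their own median in m83 and 1 in m49. Dnah12, Dnah3 and Tmem212 had median counts under 10.

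Other genes of motile cilia, 67 further ones that assemble or form axonemes, were all in the table, and 51 had a median count of at least 10. Of these 51, 25 had a highest library at least 2 times the median library (49%, against 15.6% of all genes) and 19 were highest in m115 (6.31% of all genes). By level, 12 of the 14 under 1 CPM passed that ratio, against 58.4% of all such genes, and 13 of the 37 at 1 CPM or more, against 7.13%. Their mean deviation was 0.51 in m115 and 0.43 in m47, 0.07 in m49, 0.08 in m83 and −0.31 in m61. Dynlrb2, a dynein light chain gene, ran from 0.0553 CPM in m89 through 0.441 to 2.59 CPM in m115. Dnal1, a light chain of the outer arm and the most abundant of the 51, stayed between 108 and 182 CPM.

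Regulators of multiciliated cell fate ranged from undetected to abundant. Of 12 such genes 8 had a median count of at least 10, and 2 of these, Myb and Deup1, passed a ratio of 2 (25%, against 15.6% of all genes). Both have a median under 1 CPM, where 58.4% of all genes passed, so their number is near the background. Myb, a factor active early in multiciliogenesis, was at 3.22 CPM in m47 and 2.24 CPM in m115, and between 0 and 0.857 CPM elsewhere. Trp73, a further regulator of multiciliated cells named after its values were seen, was at 2.12 CPM in m115 and 0.781 CPM in m47, and at most 0.402 CPM elsewhere. Trp73 had a median count under 10. Deup1, which amplifies centrioles, was at 0.804 CPM in m49, 0.689 in m101 and 0.625 in m47, and at 0.249 CPM in m115, below its median of 0.373 CPM. Mcidas and Ccno, which act early in the programme, were lowest in m47 with 0.156 and 2.03 CPM. Rfx2 was at 4.16 CPM in m47 and 3.66 CPM in m115, with a median of 2.32 CPM. Gmnc, with a median count under 10, was at 0.349 CPM in m115 and 0.281 CPM in m47. The regulators thus did not share 1 pattern. Myb, Trp73, Rfx2 and Gmnc had their 2 highest libraries in m115 and m47, while Deup1, Mcidas, Ccno and the other detected regulators did not. Rfx3, an RFX factor of cilia genes, was at 76.9 CPM in m47, 71.0 in m57, 67.1 in m115 and 64.8 in m73, with a median of 40.2 CPM. Rfx3 thus was high in m57 and m73 too, where Foxj1 was at 3.15 and 2.27 CPM.

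Genes of intraflagellar transport and the primary cilium, the single sensory cilium that neurons also carry, varied little. Of 34 such genes, all at 1 CPM or more, 0 had a highest library at least 2 times the median library, against 7.13% of all genes at that level, and the median ratio was 1.26. Their mean deviation lay between −0.28 in m61 and 0.06 in m57. Kifap3, the most abundant of them, stayed between 275 and 365 CPM, and Arl3, the most variable, was lowest in m115 with 71.5 CPM and highest in m61 with 193 CPM.

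Markers of other cells near the ventricle were measured beside the cilia genes. Choroid plexus genes had a mean deviation of 0.30 in m115, 0.58 in m47 and between −0.35 and 0.11 in the other libraries, over the 6 of 12 genes with a median count of at least 10, and their summed level over all 12 ran from 17.7 to 33.0 CPM. Ttr, the defining gene of that epithelium, was at 0.224 CPM in m115, 0.219 CPM in m83 and 0 counts in the other 9 libraries, so Ttr was at 10 counts or fewer in every library. Folr1 of the same list had m47, m115 and m49 as its 3 highest libraries (0.406, 0.274 and 0.165 CPM), at 13 counts or fewer in every library. Prlr was at 1.62 CPM in m115 and 1.5 CPM in m47. Of the others with a median count of at least 10, Otx2 was highest in m47 and Kl and Aqp1 in m89. Sostdc1 was highest in m73 and Clic6 in m57. The part of choroid plexus RNA in the cilia values was not tested. The ependymal genes without a role in cilia had a mean deviation of 0.53 in m115, 0.51 in m47 and 0.60 in m61, over 4 of 5 genes. Of these Cd24a was at 45.3 CPM in m47, 38.4 in m61, 32.1 in m49 and 31.7 in m115, so m61 was high for Cd24a and low for most cilia genes. Rarres2 was at 12.5 CPM in m115, 9.19 in m47, 8.78 in m83 and 7.40 in m61, with a median of 6.19 CPM. S100a6 was highest in m74 with 13.5 CPM.

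Neuroblast and dividing-cell genes of the neighbouring subventricular zone moved partly with the cilia genes. The mean deviation of the 8 dividing-cell genes was 0.97 in m47, 0.85 in m89, 0.78 in m115, 0.46 in m49 and −1.66 in m57, and that of the 10 neuroblast genes was 0.63 in m47, 0.45 in m89, 0.43 in m115 and −0.82 in m57. The library m89 was thus high for both lists, while its cilia score was −0.21 and it had 2 counts of Ccdc153. Their summed levels ran from 3.55 to 60.2 CPM for the dividing-cell genes and from 555 to 1016 CPM for the neuroblast genes. The part of these cells in the cilia values was not tested. Astrocyte genes had a mean deviation of −0.03 in both m115 and m47, with a summed level of 2489 CPM in m115 and 2494 CPM in m47 within a range of 1729.8 to 2911 CPM. Striatal projection neuron genes, by contrast, were at −0.16 in m115 and −0.26 in m47, between −0.51 in m74 and 0.94 in m44. Of the 6 libraries with a score below 0 for projection neuron genes, m115, m47 and m49 had cilia scores above 0, and m74, m73 and m101 had cilia scores of −0.21, −0.11 and −0.24. Of the 5 at 0.67 or above, m83 and m44 had cilia scores of 0.14 and 0.03, and m61, m89 and m57 had scores of −0.44, −0.21 and −0.15.

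**Figure D5:**
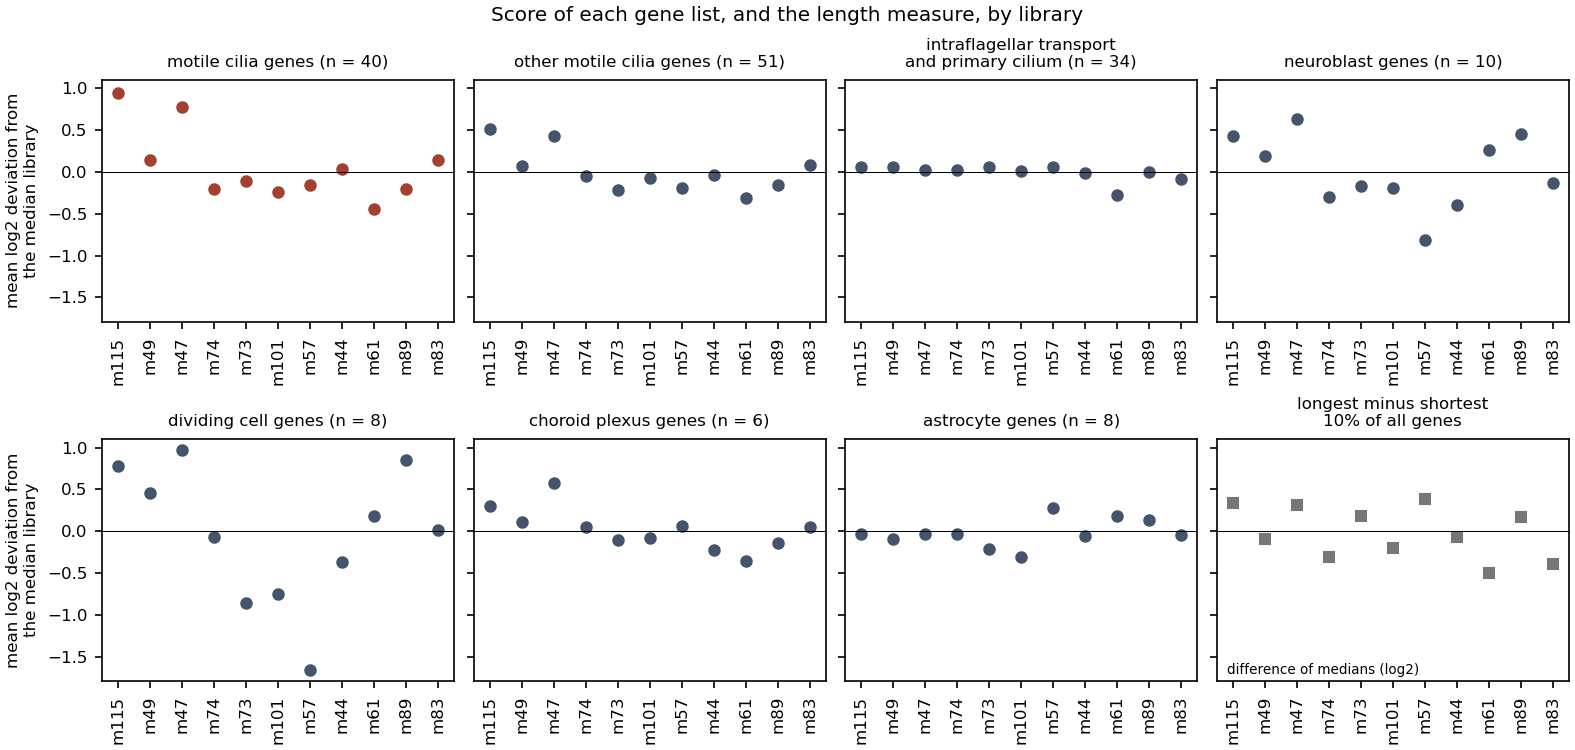
Mean log2 deviation from the median library of 7 gene lists in each library (circles), and the difference in median deviation between the longest and shortest 10% of all genes (squares, last panel). The motile cilia genes reach 0.95 in m115 and 0.77 in m47, intraflagellar transport genes stay near 0 except in m61 (−0.28), and dividing-cell genes are also high in m89.

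Among the 17466 genes outside the list with a median count of at least 10, the profile nearest to the mean deviation of the cilia genes was that of Iqcg, which codes for an axonemal protein of the nexin link, with a root mean square difference of 0.196 on the log2 scale over the 11 libraries. Iqcg was at 6.36 CPM in m115, 5.72 in m47, 4.78 in m49 and 4.24 in m83, and between 2.172 and 3.80 CPM in the other libraries. The next 9 in order were Zfhx3, Slc2a12, Traf1, Ankrd66, Erich2, Fam92b, Kif6, Glis3 and Blm, with differences up to 0.231. This difference grows with the size of a gene's own deviations, so it ranks profiles of similar size to the mean first. Each of the 40 cilia genes against the mean of the others had a median difference of 0.487, near the 0.507 of all 17466 genes. A small difference therefore does not set cilia genes apart.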

How the data were processed

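Poly(A) RNA from 300 µm frozen sections entered stranded TruSeq library preparation (200 ng input, 12 PCR cycles), per the labels' protocols. The deposited values are the authors' raw read counts per gene, without normalization. The submitters' processing notes name HTSeq 0.6.1, TopHat2 2.0.14, Bowtie2 2.1.0, bcl2fastq 2.17.1.14 and the mm10 genome. Neither the strand setting of the counting nor its annotation release is given there or in the labels, so overlapping genes, antisense genes and near-identical copies are uncertain. The exons of 27 of the 44 genes overlap no other gene, and 4 genes have over 10% of exon bases overlapped.

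From the deposited counts, CPM were computed on library sizes scaled with TMM, the trimmed mean of M values (edgeR 4.0.16, R 4.3.3, factors 0.908 to 1.06). Of 52550 gene identifiers 52403 matched GENCODE M21, which gave names, coordinates and exon lengths. Genes with a median count of at least 10 entered scores and spreads. A score is the mean over genes of log2(CPM + 0.5) minus each gene's median library. The spread is edgeR's biological coefficient of variation, fitted with an intercept only, not shared between genes and tested on simulated data. Intervals are exact Clopper-Pearson 95% intervals of counts. The length measure compares the longest and shortest 10% of genes (over 9437 and under 1412 exon bases). Scripts ran in Python 3.11.15 (scipy 1.17.1, pandas 2.3.3, numpy 2.4.6, matplotlib 3.10.9), and DESeq2 1.42.0 gave alternative size factors.

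The labels give no genotype, so all 11 libraries stayed unassigned and no comparison was tested. Values in every library are given for Foxj1, Ccdc153, Tmem212, the member of highest median level per kilobase in each role and the genes of largest and smallest ratio. Of other lists, the gene of highest median level per kilobase and that of largest ratio are named, with Ttr, and outside all lists the 10 nearest profiles. Rfx3, Trp73, Deup1, Mcidas, Ccno, Folr1, Ppp1r1b, Vim and Top2a fall outside it and were picked with their values in view. So were Drd1, Drd2, Adora2a, Pde10a, Rgs9, Rfx2, Gmnc, Otx2, Kl, Aqp1, Sostdc1, Rarres2 and S100a6. The members, lists and libraries singled out were chosen with earlier results of these data known.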

Additional observations from a re-analysis of the deposited data

How the results depend on the processing

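DESeq2 size factors, unscaled library totals, a filter of 1 CPM in 3 libraries, no filter, a pseudocount of 2, medians over genes, a ratio of 1.5, each library left out in turn and, chosen after seeing the data, only the 23 genes without overlapping or near-identical genes were tried. Of 156 values that describe the cilia genes as a whole, 1 moved beyond its limit. The limit was 1.5 times for a count or a spread, and 1 SD over libraries, 0.432, for a score. The value that moved was the number of genes highest in m61, 1 of the 40 with DESeq2 size factors against 0. That score limit is larger than the scores of most libraries, such as 0.15 in m49. A score could thus change sign and still count as unmoved. The score of m115 ran from 0.64 (pseudocount of 2) to 1.03 (no filter) and that of m47 from 0.50 to 0.86. Genes with a highest library at least 2 times the median library numbered 20 to 26 of the 40 when each library was left out (12.7 to 15.4% of all genes), and 20 without m115 or m73. At a ratio of 1.5 there were 32, against 40.1% of all genes. The median spread ran from 0.505 without m115 to 0.565 without m44. The other 638 values were scores of the other lists and ratios of highest to median library of single cilia genes. Their limits were 1 SD over libraries of each list's own score, and 1.5 times for a ratio. Scores of single roles were not tried in other settings. Of the 638, 2 moved, both in m61: the multicilia regulators scored −0.33 with a pseudocount of 2, and intraflagellar transport scored −0.43 on unscaled totals. No paired analysis was possible because the labels put no library in a group. Depth limits the genes under 1 CPM most, since a level of 0.133 CPM stands for 3 counts in m61.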

Other observations

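Single genes of the neighbouring cell types did not all follow the cilia genes. Vim, an intermediate filament gene of ependyma and glia, lay between 22.7 CPM in m57 and 40.1 CPM in m115, and in m74 it was close to its highest value while Foxj1 was at 2.42 CPM. Mki67, a gene of dividing cells, was at 21 CPM in m47, 15 in m89, 11.5 in m115 and 10.4 in m49, and at 1.01 CPM in m57, and Top2a was lowest there too with 0.520 CPM. Ube2c, the dividing-cell gene of highest level per kilobase, was at 3.28 CPM in m61 and 3.25 CPM in m47. Dcx, a neuroblast gene, was at 92.8 CPM in m47, 80.4 in m115, 75.2 in m89 and 58.0 in m73, with a median of 33.5 CPM, while Tubb3, shared with neurons at large, was highest in m61 with 701 CPM and lowest in m115 with 339 CPM.

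Prlr, a receptor gene on the choroid plexus list, was at most 0.607 CPM outside m115 and m47, whereas Clic6 of the same list was highest in m57 with 24.5 CPM. Col23a1, the 1 of 3 tanycyte genes with a median count of at least 10, was at 7.25 CPM in m115 and 6.28 CPM in m47 and was highest in m57 with 19.8 CPM. Gfap of astrocytes was lowest in m115 with 22.9 CPM and highest in m89 with 63.5 CPM, and Slc1a2 lay between 1002 and 1840.4 CPM. E2f4, the multiciliogenesis regulator of highest level per kilobase, stayed between 17.6 and 29.4 CPM.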
